A study of Mus musculus with 2 samples.

Results

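The genes described here are p53 targets and genes of the DNA damage response, chosen by name from a list of 36 genes. Of these, 33 had at least 1 probe set that the array's annotation assigns to that gene alone, out of 18193 genes so represented. Trp53, which encodes p53 itself, the pro-apoptotic gene Bax and the secreted stress factor Gdf15 had no such probe set and are not analysed here. Affymetrix mouse arrays were hybridised with RNA of primary endothelial cells cultured from C57/BL6 embryos of stage E10.5. Both groups came from Snail1 f/f embryos, in which target sites of the Cre recombinase flank part of Snail1. The WT group was infected with an adenovirus that carries β-galactosidase and the Snail1 KO group with an adenovirus that carries Cre, and both recovered for several days. Each group is 1 array, so no value below has a replicate, no difference was tested, and differences are described by size. The labels give no array of cells that received Cre without a floxed Snail1 and none of uninfected cells, so Cre, its virus and the loss of Snail1 cannot be told apart.

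The transcription factor p53 is held low in unstressed cells by Mdm2, which marks it for degradation. Kinases that sense broken or stalled DNA, such as Atm and Atr, release it together with the effector kinases Chek1 and Chek2. Once released, p53 switches on genes for cell cycle arrest, cell death, DNA repair and its own inhibitors. Cre cuts DNA at its target sites and, at high levels, is known to cut at similar sequences elsewhere in mammalian genomes. The comparison therefore asks whether cells given Cre carried a p53 response.

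Values are log2 expression, so a difference of 1 is 2-fold, and every difference is Snail1 KO minus WT. The arrays differed in Cre: its 4 control probe sets lay between 2.69 and 3.83 on the WT array and between 11.87 and 12.86 on the Snail1 KO array. Snai1 was at 5.33 on the WT array and 3.59 on the Snail1 KO array, 3.35-fold lower. The second value is below the filter level of 3.97, so the fold is not exact, and whether the probes lie in the deleted part is not known. Of 10 endothelial markers, all were analysed, with a median difference of 0.097, and Cdh5 was at 11.34 and 11.46 and Pecam1 at 10.18 and 10.22. Among them 2 were at least 1.5-fold higher (5.06% of all analysed genes) and 0 at least 1.5-fold lower (6.08% of all analysed genes). Cldn5 was 2.11-fold higher, Tek 1.53-fold higher and Emcn 1.32-fold lower. The summed linear level of the 10 markers was 28956 on the WT array and 30618 on the Snail1 KO array. The 3' end of Actb read higher than its 5' end, a sign of RNA quality, by 0.30 on the WT array and 0.34 on the Snail1 KO array.

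Most p53 targets, like most genes on the array, differed by less than 1.5-fold. The stress genes Gadd45a and Gadd45g were lower in the cells given Cre, and the sestrin gene Sesn1 was higher. In the brightest probe set of each gene, 1 of the 33 genes was at least 1.5-fold higher, beside 5.06% of the 12874 genes analysed on the array. In the other direction 3 were at least 1.5-fold lower, beside 6.08% of all genes. At 2-fold, 1 of the 33 was lower (1.84% of all genes) and 0 were higher (0.971% of all genes). The 4 genes past 1.5-fold were Sesn1, higher, and Gadd45g, Gadd45a and Fas, lower. The central 90% of all analysed genes ran from -0.64 to 0.59. A 1.5-fold difference is 0.585, inside these limits, so the other 29 genes necessarily lay within them. A difference of at least 0.5 to either side was found in 18.2% of the 33 genes and in 15.7% of all genes. The median difference of the 33 genes was 0.075, beside -0.0083 over all analysed genes, and 20 of them had a positive sign and 13 a negative one. A positive sign was thus found in 60.6% of these genes and in 48.9% of all genes. All 33 had a mean above the filter on dim genes, a log2 value of 3.97.

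**Figure D1:**
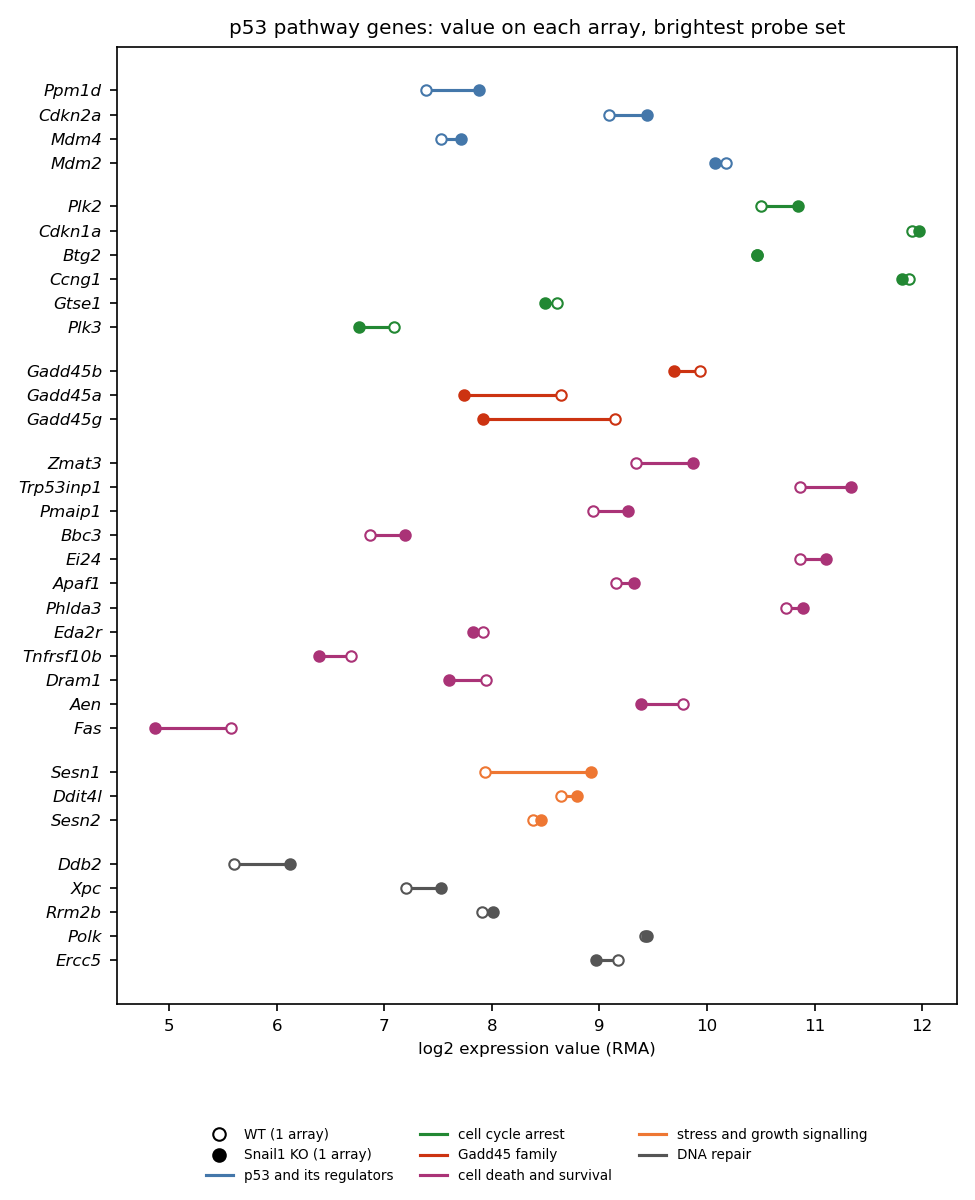
Log2 expression of the 33 genes on the WT array (open circles) and the Snail1 KO array (filled circles), brightest probe set of each gene, grouped and coloured by role. Each row is read on its own, since probe sets of different genes are not comparable in level. The longest lines belong to Gadd45g, Gadd45a, Fas and Sesn1, while the circles of Cdkn1a, Btg2, Ccng1 and Polk nearly coincide.

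The promoters of 4 genes are shown because they cover the range of the differences: Cdkn1a, which was level, Gadd45a and Gadd45g, which were lower, and Sesn1, which was higher. They are RefSeq sequences on build GRCm38.p6, from 250 bases before the annotated start of transcription to 50 bases after it, written 5′ to 3′ on the strand of the gene. Capitals mark matches to the decamer consensus of the p53 response element, a palindrome that p53 binds in pairs. Cdkn1a (chr17:29090729-29091028, plus strand), Gadd45a (chr6:67037358-67037657, minus strand), Gadd45g (chr13:51846425-51846724, plus strand) and Sesn1 (chr10:41887189-41887488, plus strand) read as follows.
Cdkn1a: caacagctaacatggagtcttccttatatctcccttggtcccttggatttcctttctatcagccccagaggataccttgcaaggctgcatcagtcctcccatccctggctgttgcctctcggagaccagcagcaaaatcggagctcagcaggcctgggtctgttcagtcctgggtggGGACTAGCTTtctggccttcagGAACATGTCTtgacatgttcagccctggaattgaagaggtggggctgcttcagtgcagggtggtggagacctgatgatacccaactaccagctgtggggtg
Gadd45a: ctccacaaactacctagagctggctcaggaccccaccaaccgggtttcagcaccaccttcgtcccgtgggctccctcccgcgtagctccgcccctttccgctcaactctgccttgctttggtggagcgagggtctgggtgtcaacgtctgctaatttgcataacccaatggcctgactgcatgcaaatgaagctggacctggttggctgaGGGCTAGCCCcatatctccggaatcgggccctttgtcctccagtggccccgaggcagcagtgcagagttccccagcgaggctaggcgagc
Gadd45g: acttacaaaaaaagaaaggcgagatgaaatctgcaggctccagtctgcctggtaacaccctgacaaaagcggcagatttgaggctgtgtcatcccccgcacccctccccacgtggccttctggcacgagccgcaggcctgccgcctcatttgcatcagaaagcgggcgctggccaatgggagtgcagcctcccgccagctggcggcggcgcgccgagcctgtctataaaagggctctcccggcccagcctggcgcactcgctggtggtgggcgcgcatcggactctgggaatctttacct
Sesn1: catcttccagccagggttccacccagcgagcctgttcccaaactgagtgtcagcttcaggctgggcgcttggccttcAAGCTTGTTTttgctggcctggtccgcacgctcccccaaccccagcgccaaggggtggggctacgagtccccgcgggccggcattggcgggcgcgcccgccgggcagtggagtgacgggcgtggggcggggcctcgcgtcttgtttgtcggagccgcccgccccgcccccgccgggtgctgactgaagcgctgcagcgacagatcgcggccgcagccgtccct

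The window of Cdkn1a holds 2 such decamers, which begin 73 and 51 bases upstream of the start. That of Gadd45a holds 1, beginning 40 bases upstream, and that of Sesn1 holds 1, beginning 173 bases upstream. The Gadd45g window holds 0. The table gives both Cdkn1a and Sesn1 another start, whose windows hold 0 decamers. The promoter table covered 29 of the 36 genes with 39 windows, of which 14 windows, of 13 genes, hold at least 1 decamer. Over all 32851 promoter windows of the same length the share was 8.36%. The motif TGANTCA, bound by AP-1, equals its reverse complement and does not overlap the decamer in these windows. It was found in the windows of Fas and Mdm4 and in 7.81% of all windows. A match shows the letters only, not that a factor was bound, and the windows leave out distal and intronic sites.

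The regulators of p53 were between -0.10 and 0.49 in their brightest probe sets, with none of the 4 past 1.5-fold. Mdm2, the ubiquitin ligase that degrades p53 and is itself a p53 target, was at 10.18 on the WT array and 10.08 on the Snail1 KO array. A further Mdm2 probe set was at 9.54 and 9.71, so the pair differed in sign. Mdm4, a relative of Mdm2 that blocks the activity of p53, was at 7.53 and 7.71, and its other analysed probe sets differed by -0.40 and 0.36. Ppm1d, a phosphatase that turns the damage signal off and is induced by p53, was at 7.39 and 7.88, which is 1.41-fold higher. Its other probe set went from 6.63 to 7.14, a difference of 0.51 beside 0.49 in the first. Cdkn2a, a locus that encodes p16, an inhibitor of Cdk4 and Cdk6, and Arf, an inhibitor of Mdm2, was at 9.09 and 9.44 in its 1 probe set, which is not assigned here to either product. Ppm1d thus had the largest difference of these 4 genes, and its probe sets were 0.017 apart.

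Genes of cell cycle arrest differed by at most 0.34 to either side in their brightest probe sets. Cdkn1a, which encodes the cyclin-dependent kinase inhibitor p21 and is the best known p53 target, was at 11.90 on the WT array and 11.97 on the Snail1 KO array. Its other probe set was at 11.62 and 11.61. Both probe sets of Cdkn1a were therefore nearly equal on the arrays, and 40.4% of all analysed genes had a larger positive difference than its brightest one. Ccng1, cyclin G1, was at 11.88 and 11.81, but its other probe sets went in opposite directions, by -0.41 and 0.42. Btg2, an antiproliferative factor, was at 10.46 and 10.47. Gtse1, which binds p53 and moves it out of the nucleus, was at 8.61 and 8.49. The polo-like kinases Plk2 and Plk3, which are induced by stress, had opposite signs. Plk2 went from 10.51 to 10.84 and Plk3 from 7.09 to 6.77. Of the 6 genes of this group 3 were positive and 3 negative, with a median of -0.031.

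Of the 3 Gadd45 genes, Gadd45g and Gadd45a were at least 1.5-fold lower in the cells given Cre, and Gadd45b differed by -0.25. They encode small stress proteins that bind p21 and the replication clamp PCNA and activate a kinase upstream of p38 and JNK. Gadd45a is a classical p53 target, while Gadd45b and Gadd45g are known mainly from cytokine and growth signals. Gadd45g was at 9.14 on the WT array and 7.92 on the Snail1 KO array, a difference of -1.22 or 2.33-fold lower. Only 1.30% of all analysed genes had a more negative difference. It was measured by 1 probe set, of a design that can match several transcripts of the gene, so the value has no second reading. Gadd45a was at 8.64 and 7.74 in its 1 probe set, 1.87-fold lower, with 2.34% of all genes below it. Gadd45b was at 9.94 and 9.69 in its brightest probe set and at 8.14 and 7.81 and at 6.32 and 6.26 in the others. Its 3 differences were thus all negative, from -0.33 to -0.057, and none reached 1.5-fold. Without these 3 genes the other 30 had a median of 0.12, with 20 positive and 10 negative, and 1 gene past 1.5-fold in each direction. Leaving out 3 negative values cannot lower the median.

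Contractile smooth muscle genes were lower in the same cells. Of 8 smooth muscle and pericyte markers 7 were analysed, 5 with a negative difference. Of these, 4 were at least 1.5-fold lower, beside 6.08% of all analysed genes. The summed linear level of the 8 markers was 3551 on the WT array and 955 on the Snail1 KO array. Tagln was 5.83-fold lower and Acta2 3.60-fold lower, while Des differed by 0.0075 and Rgs5 lay under the filter level in both groups. Of 7 fibroblast markers 5 were analysed, with 3 positive differences, and summed levels were 4029 and 4112, with Lum and Pdgfra below the filter level. Among these markers Col3a1 was lower, at 7.33 and 6.33, and Fbln2 1.52-fold higher. Of 8 leukocyte markers 6 were analysed, with 2 positive differences, and summed levels were 764 and 732, with Ptprc and Tyrobp below the filter level. Among these markers Coro1a was 3.89-fold lower and Mrc1 2.88-fold higher, from a dim 3.68 on the WT array. Of 5 erythroid markers 3 had a probe set and 1 was analysed, with summed levels of 47.4 and 38.3. The part of other cell types in the lower Gadd45 values was not tested. In RNA from whole cultures, fewer cells of a type and less RNA per cell cannot be told apart.

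**Figure D2:**
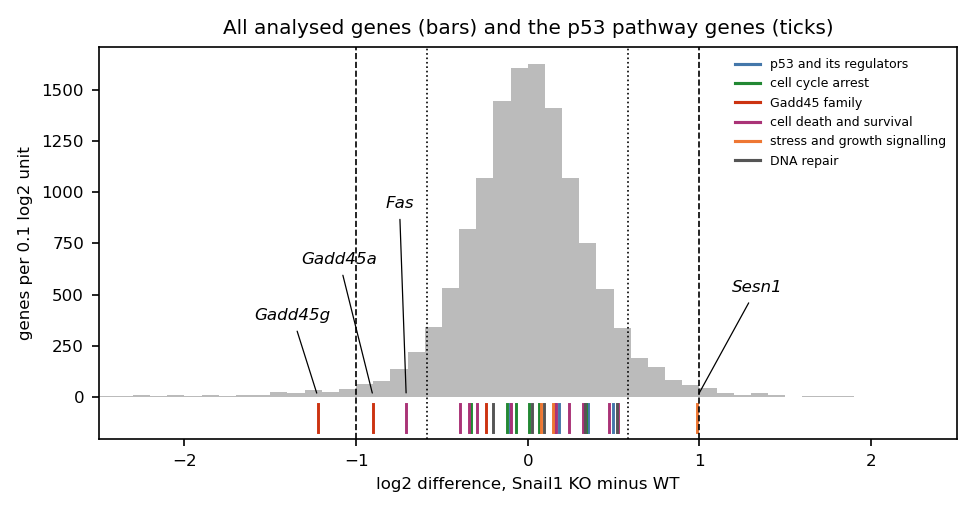
Histogram of the log2 difference (Snail1 KO minus WT) of the 12874 analysed genes, in genes per 0.1 log2 unit, with 1 coloured tick under the axis for each of the 33 genes. Dotted lines mark 1.5-fold and dashed lines 2-fold, and 21 genes lie outside the plotted range of 2.5 units to either side. Gadd45g lies beyond the 2-fold line, Gadd45a and Fas between the lines, and Sesn1 just inside the 2-fold line on the positive side.

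Genes of cell death and survival had differences in both directions. Of the 12 analysed, 7 were positive and 5 negative, with a median of 0.16. At least 1.5-fold lower was 1 gene, beside 6.08% of all genes, and 0 were at least 1.5-fold higher, beside 5.06%. That gene was Fas, a death receptor, at 5.57 on the WT array and 4.87 on the Snail1 KO array, which is 1.63-fold lower in its 1 probe set. The other receptors were lower by less. Tnfrsf10b, a receptor for the death ligand TRAIL, was at 6.69 and 6.39, with its other probe set at 6.19 and 6.03. Eda2r, a receptor for ectodysplasin that p53 induces, was at 7.92 and 7.82. All 3 receptors thus had a negative sign, and 1 of them passed 1.5-fold.

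Bbc3 and Pmaip1, BH3-only genes that trigger the mitochondrial death pathway, both had a positive sign. Bbc3, which encodes Puma, was at 6.87 on the WT array and 7.19 on the Snail1 KO array. Pmaip1, which encodes Noxa, was at 8.94 and 9.27. These differences of 0.32 and 0.33 were close to the robust SD of the difference over all analysed genes, 0.32, and 15.8% and 14.8% of all genes had a larger one. Apaf1, the scaffold of the apoptosome, was at 9.16 and 9.32 in its brightest probe set. Its dimmer probe set went from 6.37 to 7.31, which is 1.92-fold higher. The Apaf1 reading therefore depends on which probe set stands for the gene.

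Further p53 targets of this group spread to either side of 0. Zmat3, an RNA-binding zinc finger protein, was at 9.34 on the WT array and 9.87 on the Snail1 KO array, 1.44-fold higher in its 1 probe set. Trp53inp1, a p53 cofactor in cell death and autophagy, was at 10.87 and 11.34, but its other probe set was at 5.34 and 5.32. Zmat3 has no further probe set, whereas the difference of Trp53inp1 was not seen in both of its probe sets. Phlda3, which blocks the kinase Akt at the membrane, was at 10.73 and 10.89, and Ei24, a membrane protein of the endoplasmic reticulum, at 10.86 and 11.11. Aen, an apoptosis-enhancing nuclease, was at 9.78 and 9.38, and its 4 probe sets ran from -0.39 to 0.11. Dram1, a regulator of autophagy, was at 7.95 and 7.61 in 1 probe set. None of these 6 reached 1.5-fold.

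Among genes of stress and growth signalling, Sesn1 was the 1 gene higher by over 1.5-fold. Sestrins restrain the growth kinase mTORC1, and Sesn1 is induced by p53. Its brightest probe set was at 7.94 on the WT array and 8.92 on the Snail1 KO array, 1.98-fold higher. Another went from 5.40 to 6.61, 2.32-fold higher, and the third from 6.07 to 6.53, 1.38-fold higher. All 3 analysed probe sets of Sesn1 were thus higher, while 1 more, below the filter level, was at 3.17 and 2.92. Of all analysed genes, 1.05% had a larger positive difference than 0.99, that of its brightest probe set. Its relative Sesn2 was at 8.38 and 8.46, with its other probe set at 8.28 and 8.50. Ddit4l, another inhibitor of mTORC1 signalling, was at 8.64 and 8.79, and its 3 probe sets ran from -0.15 to 0.15. A difference past 1.5-fold was thus seen for Sesn1 alone of these 3 genes.

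DNA repair genes under p53 control were positive in 4 of 5 cases, and none reached 1.5-fold in its brightest probe set. Ddb2 and Xpc encode proteins that find damaged bases for nucleotide excision repair. Ddb2 was at 5.61 on the WT array and 6.12 on the Snail1 KO array, 1.43-fold higher, with its other probe set at 5.53 and 5.57. Xpc was at 7.20 and 7.53 in 1 probe set. Ercc5, an endonuclease of the same pathway, was at 9.17 and 8.97. Rrm2b, the ribonucleotide reductase subunit that p53 induces, was at 7.91 and 8.01 in its brightest probe set. A dimmer Rrm2b probe set went from 4.95 to 5.73, 1.72-fold higher, and a further 2 were below the filter level. Polk, a polymerase that copies across damage, was at 9.42 and 9.44, with a further probe set at 6.27 and 6.55.

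The probe sets of 1 gene show how far its reading can differ from probe set to probe set, and why they differ was not tested. The 33 genes had 64 probe sets, of which 57 were above the filter level. In 17 genes several passed, and these had 1 sign in 10 genes and opposite signs in 7. The spread between the lowest and highest probe set of a gene had a median of 0.30 and exceeded 0.5 in 6 genes, up to 0.84 in Ccng1. Of the 57 probe sets, 4 were at least 1.5-fold higher, namely a pair for Sesn1 and 1 each for Apaf1 and Rrm2b, and 3 were at least 1.5-fold lower, 1 each for Gadd45g, Gadd45a and Fas. None of these last 3 genes has another probe set. The shares given above are of genes, and the share of all probe sets past 1.5-fold was not counted.

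**Figure D3:**
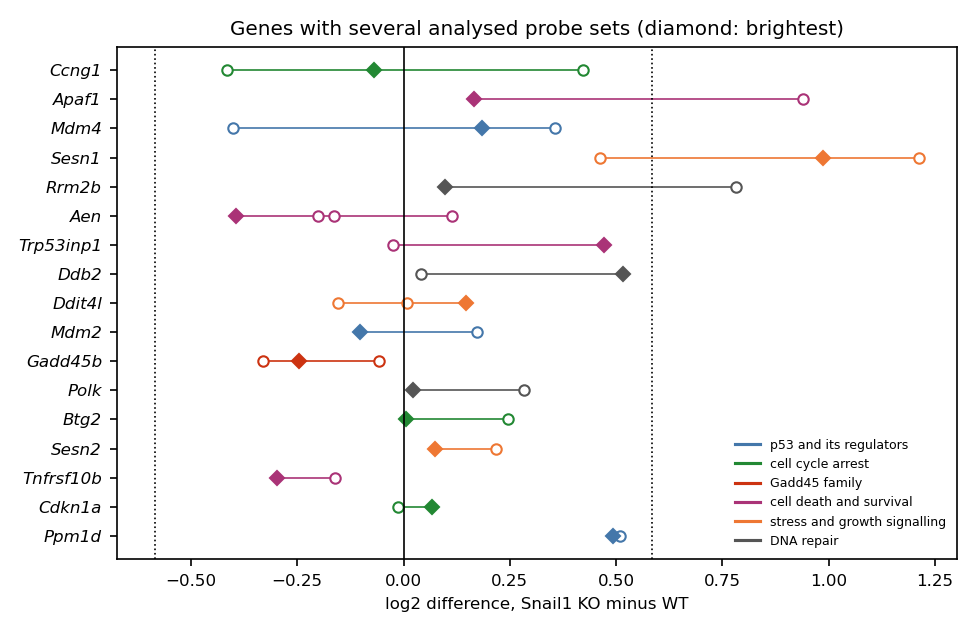
Log2 difference (Snail1 KO minus WT) of each analysed probe set for the 17 genes with several, ordered by spread. Diamonds are the brightest probe set, open circles the others, and dotted lines mark 1.5-fold. The 2 probe sets of Ppm1d nearly coincide, at 0.49 and 0.51, all 3 of Sesn1 lie to the right of 0, and those of Ccng1 and Mdm4 lie to both sides.

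Genes of damage sensing and checkpoint control upstream of p53, like most genes on the array, mostly differed by less than 1.5-fold. Of 21 such genes, 1 was at least 1.5-fold lower and 0 higher in their brightest probe sets, beside 6.08% and 5.06% of all genes. The median difference was -0.061. The kinases Atm and Atr, which sense breaks and stalled forks, differed by 0.28 and 0.071, with another Atr probe set at -0.43. Trp53bp1, which binds broken ends, differed by -0.028, although its probe sets reached 0.92. Other probe sets of Wee1 and Clspn, also in this list, reached 1.001 and -0.74. Chek1, an effector kinase, differed by -0.22, with another probe set at 0.32. Chek2, the effector kinase downstream of Atm, was at 8.16 and 7.63, 1.45-fold lower in 1 probe set. The gene past 1.5-fold in its brightest probe set was H2ax, the histone variant that is phosphorylated at breaks, at 10.33 and 9.65. All of these are mRNA levels, which do not show whether the proteins were phosphorylated or active. In this list the sign of the median depended on the probe sets: it was 0.071 without those that can match several transcripts.

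Repair and further target genes showed few differences of size in their brightest probe sets. Of the 19 analysed genes of double-strand break and crosslink repair, 0 were past 1.5-fold in either direction, with a median of -0.043, in their brightest probe sets. There the largest differences were -0.48 for Exo1, a nuclease, 0.39 for Fancd2, of the Fanconi pathway, and -0.39 for Xrcc5, which encodes Ku80. Other probe sets reached 1.004 for Brca1 and -0.81 for Rad54l, both genes of homologous recombination. Of 18 excision repair genes, 1 was at least 1.5-fold higher and 0 lower in their brightest probe sets. Neil3, a DNA glycosylase, was at 6.64 and 7.50, and its other probe set differed by 0.74. Apex1 was lower, with its 3 probe sets from -0.54 to -0.44, and Ercc1 differed by -0.42, with another probe set at -0.64. Other probe sets reached 0.83 for Rad23b and 0.72 for Polb. Another 20 p53 targets had a median of -0.13, with 7 positive and 13 negative, and another probe set of Psrc1 among them reached -0.75. Pml, the organiser of PML nuclear bodies and also an interferon-stimulated gene, was at 8.94 and 8.21, 1.66-fold lower, and Tob1, an antiproliferative relative of Btg2, was 1.42-fold higher. None of the 13 p53 relatives and modifiers reached 1.5-fold in its brightest probe set. There Hipk2, a kinase that acts on p53, had the largest difference, 0.46, with its probe sets from -0.33 to 0.46, and another probe set of Crebbp, an acetyltransferase, differed by 0.60.

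Cell cycle genes that p53 and p21 are known to lower had negative differences in 15 of 16 cases, in their brightest probe sets. Of all 12874 analysed genes, 6554 had a negative difference. Among the 16 genes, 4 were at least 1.5-fold lower, or 25.0% beside 6.08% of all genes, and the median was -0.24. Plk1, a mitotic kinase, was at 9.39 on the WT array and 8.64 on the Snail1 KO array, 1.69-fold lower. Birc5, survivin, was 1.65-fold lower, Cdc20, an activator of the anaphase-promoting complex, 1.58-fold lower and Cdk1, the mitotic cyclin-dependent kinase, 1.52-fold lower. Plk1, Birc5 and Cdk1 had 1 analysed probe set each, and those of Cdc20 ran from -0.66 to -0.40. Top2a, Ccne1 and Cdc25a differed by -0.0017, -0.042 and -0.041, and Ccne2 was 1.25-fold higher. Other probe sets reached 0.17 for Mcm5 and 0.053 for Ccna2, but -0.88 for Plk4 and -0.78 for Cdc25c. No list was compared with others by a test.

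**Figure D4:**
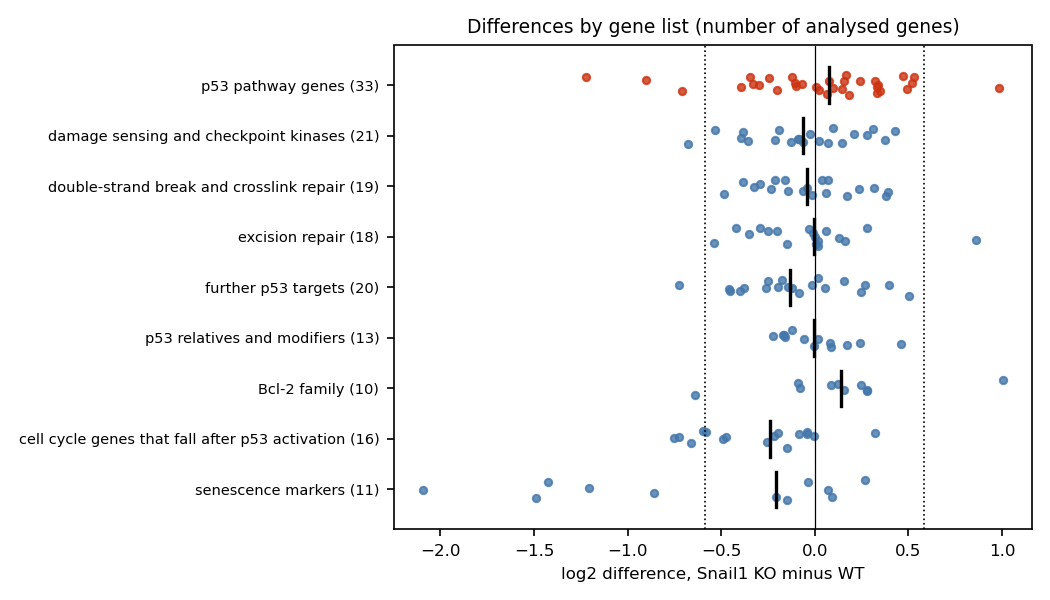
Log2 difference (Snail1 KO minus WT) of each analysed gene, 1 row for the p53 pathway genes and each of 8 pathway lists with its number of genes (cell type markers not drawn), black bars marking list medians and dotted lines 1.5-fold. The medians drawn run from -0.24 for the cell cycle genes to 0.14 for the Bcl-2 family, and the 33 p53 pathway genes have a median of 0.075.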

How the data were processed

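The authors deposited log2 expression values, 1 per probe set and array. The submitters' processing notes name RMA and the affy package, without versions. RMA normalizes both arrays to a like distribution, so a change in total mRNA cannot be seen, and folds of dim probe sets are understated. The number of arrays limits the precision, and no detection calls were used. Of 45101 probe sets, 64 are controls. GEO's platform annotation, which can be old, gave 1 symbol to 34945, several to 932 and none here to 9160. Groups were taken from the sample titles. From these values, the probe set with the highest mean of both arrays stood for its gene, which was analysed if that mean exceeded the 40th percentile (3.97). Genes past 1.5-fold or 2-fold were counted, since 1 array per group allows no test. Every listed gene with a probe set is named. Of other lists, up to 5 genes with the largest differences, Atm, Atr, Chek1, Chek2, Trp53bp1, Snai1, Cdh5 and Pecam1 are named. Other genes named for contrast (Top2a, Ccne1, Cdc25a, Ccne2, Ccna2, Mcm5, Plk4, Des, Brca1, Rad54l, Wee1, Clspn, Rad23b, Polb, Psrc1, Crebbp and the dim markers) were picked once their values were known. The genes and lists were chosen with earlier results of these data known. List symbols were matched directly or through RefSeq synonyms. The counting code was run on simulated data whose changed values were set past the threshold. That checks the code only and says nothing of the counts in these data. Python 3.11.15, pandas 2.3.3, numpy 2.4.6 and matplotlib 3.10.9 were used. The alternatives were the mean of all probe sets, no probe sets that can match several transcripts, no filter, a filter at the 60th percentile, centring, and a 3-fold threshold.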

Additional observations from a re-analysis of the deposited data

Results flagged for a closer look

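Outside the gene comparisons, the 4 control probe sets for Cre stood far apart between the arrays. Those of the first design gave log2 differences (Snail1 KO minus WT) of 8.04 and 9.52, and those of the later design 9.44 and 10.17. Their WT values were dim, at 3.83 or less, so the sizes are not exact.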

How the results depend on the processing

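No array can be left out of groups of 1. No paired analysis was possible because each group holds 1 array. A value was taken as moved when it shifted by more than the robust SD of all genes, 0.32. Of 160 values of the 33 genes under the 5 alternatives to probe sets, filter and centring, 156 did not move and 4 did. Changing or dropping the filter keeps the same probe sets, and centring only subtracts the median of -0.0083, so those values could not move. All 4 moves came from the settings that change the probe sets. Signs could change without a move: with the mean of all probe sets Mdm2 was at 0.065, Mdm4 at -0.0011 and Ercc5 at 0.098. With the mean of all probe sets Sesn1 was at 0.60 and Apaf1 at 0.55. Without probe sets that can match several transcripts Mdm4 was at -0.40 and Ccng1 at -0.41, Gadd45g, Cdkn2a and Ddb2 had none left, and Mdm2 only a dim one. The count of p53 pathway genes at least 2-fold lower was then 0 and that of genes at least 2-fold higher was 1, Sesn1. At 3-fold, 0 p53 pathway genes were lower, and 23 of all genes were higher and 90 lower. Averaging probe sets left 77 genes 2-fold higher in all. The median of the senescence markers was -0.65 with the mean of all probe sets and -0.86 without those that can match several transcripts, and that of the smooth muscle and pericyte markers was -1.59 with the filter at the 60th percentile, over 4 genes. That filter also removed Fas. The median of the p53 pathway genes ran from 0.067 to 0.098 over the alternatives. The causes of these shifts were not tested, apart from the fewer genes and probe sets named.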

Other observations

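Senescence markers, which include genes that damaged cells secrete, had a median difference of -0.21 over 11 analysed genes, with 3 positive and 8 negative. Of these, 5 were at least 1.5-fold lower and 0 at least 1.5-fold higher, beside 6.08% and 5.06% of all genes. The median was -0.65 with the mean of all probe sets and -0.86 without those that can match several transcripts. Ccl2, a monocyte chemokine, was at 11.47 on the WT array and 9.38 on the Snail1 KO array, 4.27-fold lower. Igfbp3, an IGF-binding protein, was 2.81-fold lower, Timp1, a metalloproteinase inhibitor, 2.68-fold lower and the chemokine Cxcl1 2.31-fold lower, with its 3 probe sets from -2.23 to -0.16. Il6 went from 4.55 to 3.69, which is below the filter level. The cyclin-dependent kinase inhibitor Cdkn2b differed by -0.21, the nuclear lamin Lmnb1 by -0.034 and Glb1, the source of senescence-associated β-galactosidase activity, by 0.27. These last 3 genes were picked once their values were known.

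The Bcl-2 family had a median difference of 0.14 over 10 genes. Bik, a BH3-only gene, was at 7.39 on the WT array and 8.40 on the Snail1 KO array, 2.01-fold higher, and its 3 probe sets ran from 0.80 to 1.01. Bak1, a pore-forming effector, was at 7.73 and 7.09, 1.56-fold lower, with its other probe set at -0.19. Mcl1, Bok and Bcl2l2, with roles in survival or death at mitochondria, differed by 0.28, 0.28 and 0.25, and another Bcl2l2 probe set by -0.23.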
